A study of Rattus norvegicus with 16 samples.

Results

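Messenger RNA of the myostatin, activin and TGF-beta signals was followed in the supraspinatus, a rotator cuff muscle, of Sprague Dawley rats. The genes were chosen by symbol: the ligands Mstn, Inhba, Gdf5, Tgfb1, Tgfb2 and Tgfb3, the binding proteins Fst and Fstl3, and the receptors Acvr2b and Tgfbr2. Of these 10 genes, 9 were found among the 17147 genes of the table, and Gdf5 was not analysed here. The 16 libraries formed 4 groups of 4: unoperated control muscle (0 days), and muscle taken 10, 30 or 60 days after surgery. The surgery was bilateral and tore the supraspinatus through its full thickness, and it included suprascapular neurectomy, which interrupts the nerve that drives the muscle. Tear and denervation were applied together in every operated group, so their parts cannot be told apart, and the controls were unoperated. The labels give no age and do not say which libraries came from the same rat, so p-values measure the spread between these libraries only, which may be partly technical.

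Myostatin, the product of Mstn, is a secreted factor made mainly by muscle fibres that limits muscle mass, and activin A is a dimer of the Inhba product. Both bind type II receptors such as the Acvr2b product, which then engage type I receptors and lead to phosphorylation of Smad2 and Smad3. Follistatin (Fst) and follistatin-like 3 (Fstl3) bind these ligands outside the cell and keep them from their receptors. The TGF-beta isoforms are secreted in a latent complex, signal through the Tgfbr2 product to the same Smads, and are known in muscle for driving extracellular matrix production by fibroblasts.

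Totals ran from 17.2 to 39.9 M fragments (M, mega) per library, and the libraries at 60 days (17.2 to 22.4 M) all lay below every other library, so that depth and the last time point cannot be told apart. Levels below are fragments of a gene per 1 M fragments (CPM) after TMM scaling, and they are not scaled for gene length. A count of 3 fragments corresponded to 0.0752 CPM in the deepest library and to 0.175 CPM in the shallowest. In the order of time, TMM factors were 0.750 to 0.775, 1.18 to 1.24, 1.01 to 1.15 and 0.969 to 1.07. Scaled by library totals only, in place of these factors, the median log2 change of all tested genes against 0 days moved up by 0.66 at 10 days, 0.49 at 30 days and 0.41 at 60 days. Differences are given on the TMM scale, that is relative to that shift. Log2 fold changes with standard errors (SE) and Benjamini-Hochberg adjusted p-values come from edgeR's quasi-likelihood test over 11658 genes, and a call is an adjusted p under 0.05. With library totals alone, 80.2%, 75.1% and 69.9% of all tested genes were called at 10, 30 and 60 days against 0 days.

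Mstn fell after surgery and stayed low, while Fst, which encodes its binding protein, rose from near 1 CPM to above 25 CPM. Mstn stood at 13.0, 16.6, 11.2 and 13.0 CPM in the unoperated libraries. It stood at 2.15, 1.91, 4.98 and 1.84 CPM at 10 days, at 1.17, 2.71, 1.92 and 1.25 CPM at 30 days, and at 1.57, 1.18, 0.877 and 1.16 CPM at 60 days. Every operated library lay below every unoperated one, and the highest operated library was replicate 3 at 10 days. The mean was 13.5 CPM ± 2.26 (SD, n = 4) without surgery, then 2.72 ± 1.51, 1.76 ± 0.715 and 1.19 ± 0.284 in the order of time. Against 0 days, Mstn was 4.97-fold lower at 10 days (log2 fold change -2.31 ± 0.31 SE, edgeR adjusted p 6.61e-06), 7.50-fold lower at 30 days (-2.91 ± 0.32, adjusted p 1.07e-06) and 11.2-fold lower at 60 days (-3.48 ± 0.35, adjusted p 5.89e-07). Under library totals, these changes were -1.65, -2.43 and -3.07. The level fell further between 10 and 60 days, by 1.17 ± 0.35 SE on the log2 scale (edgeR adjusted p 0.00918), with no overlap of the groups. Without replicate 3 at 10 days, the library with the highest operated level, that difference was -0.71 (edgeR adjusted p 0.0405). The neighbouring steps from 10 to 30 days (-0.59, edgeR adjusted p 0.141) and from 30 to 60 days (-0.57, adjusted p 0.278) were not called. The first of these steps ran from -0.91 without replicate 2 at 30 days (edgeR adjusted p 0.0404) to -0.13 without replicate 3 at 10 days (adjusted p 0.702). At 60 days the Mstn values rested on 15 to 34 fragments per library, against 231 to 453 at 0 days.

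Fst stood at 1.12, 1.28, 0.848 and 0.383 CPM in unoperated muscle, from 8 to 35 fragments per library. At 10 days the values were 31.2, 50.2, 33.3 and 47.9 CPM, at 30 days 35.6, 25.8, 26.2 and 58.3 CPM, and at 60 days 35.8, 27.9, 35.9 and 25.6 CPM. The operated groups overlapped one another, and the lowest operated library lay far above the highest unoperated one. The mean was 0.910 CPM ± 0.395 (SD, n = 4) without surgery, then 40.7 ± 9.80, 36.5 ± 15.2 and 31.3 ± 5.33 in the order of time. The rise was 43.9-fold at 10 days (log2 5.46 ± 0.35 SE, edgeR adjusted p 4.47e-09), 39.3-fold at 30 days (5.30 ± 0.35, adjusted p 7.97e-09) and 33.8-fold at 60 days (5.08 ± 0.35, adjusted p 2.59e-08). No difference among the 3 operated groups was called for Fst (edgeR adjusted p 0.625, 0.576 and 0.208 for 30 against 10, 60 against 30 and 60 against 10 days). The last of these was -0.38 ± 0.25 SE and was called with library totals alone (-0.63, edgeR adjusted p 0.0444).

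**Figure D1:**
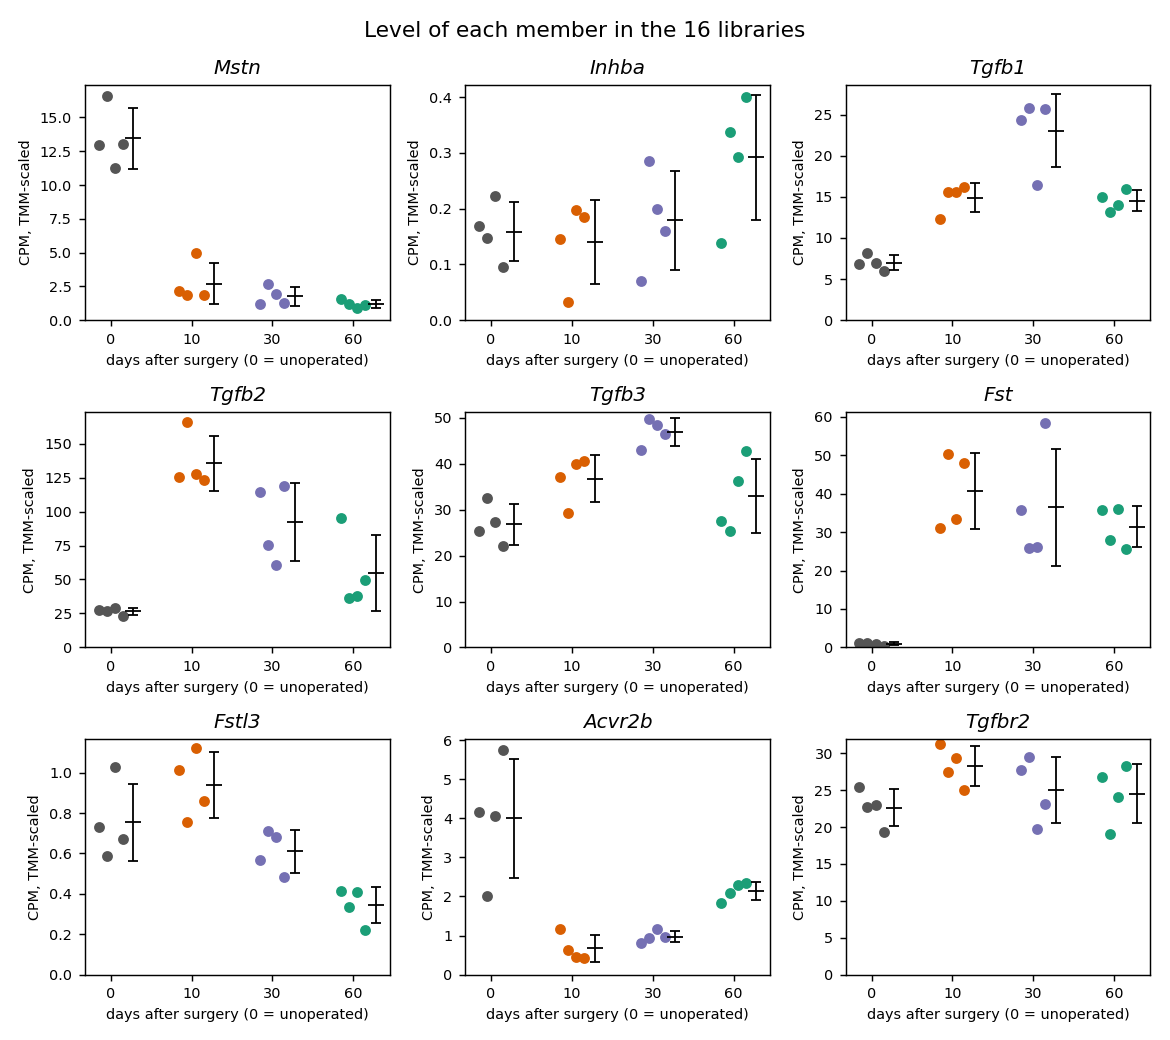
Level of each gene in CPM after TMM scaling (vertical axis, one scale per gene, starting at 0) at 0, 10, 30 and 60 days (horizontal axis). Points are single libraries, and the bar beside them is the mean ± SD of 4. Mstn is highest and Fst lowest in the unoperated libraries, Tgfb2 peaks at 10 days, Tgfb1 at 30 days, and the operated Tgfbr2 libraries overlap the unoperated ones.

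The balance of both genes within a library is given by the ratio of Fst to Mstn fragments, which restates the 2 genes on a scale that no scaling between libraries touches. It ran from 0.0312 to 0.0886 in unoperated muscle, where Mstn fragments outnumbered Fst fragments in each library. It ran from 6.68 to 26.1 at 10 days, from 9.51 to 46.0 at 30 days and from 21.8 to 39.6 at 60 days. On the log2 scale with 0.5 added to each count, the means were -3.97 ± 0.70 (SD, n = 4), 4.00 ± 0.93, 4.36 ± 1.04 and 4.70 ± 0.41 in the order of time. The operated groups overlapped one another on this scale. The ratio compares each library with the others and not the molar amounts of the transcripts, since neither count is scaled for gene length. No p-value is given because the pair was chosen with results of these libraries known.

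**Figure D2:**
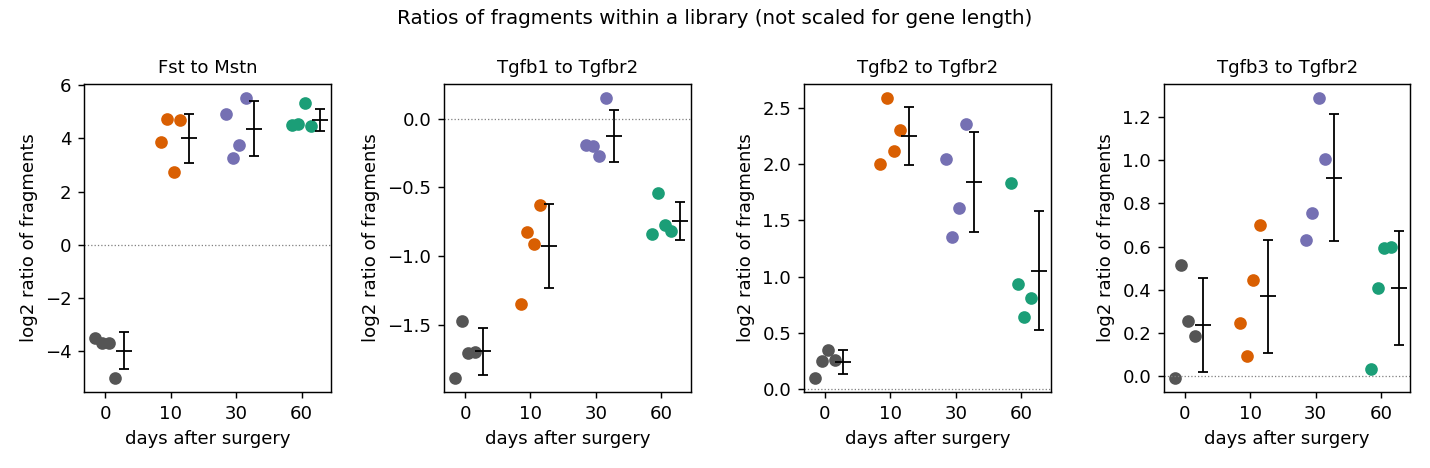
Log2 ratio of fragments of 2 genes in the same library (vertical axis) by days after surgery (horizontal axis, 0 is unoperated), with points for libraries and bars for the mean ± SD of 4. Fst to Mstn lies at -5.00 to -3.50 at 0 days and above 2.7 in each operated library. Tgfb1 to Tgfbr2 is highest at 30 days, and Tgfb2 to Tgfbr2 at 10 days.

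Inhba, the activin A subunit gene, was close to the limit of detection, with 1 to 12 fragments per library, and did not enter the test. Its levels were 0.169, 0.147, 0.223 and 0.0958 CPM at 0 days and 0.145, 0.0329, 0.198 and 0.184 CPM at 10 days. They were 0.0709, 0.285, 0.200 and 0.161 CPM at 30 days and 0.138, 0.337, 0.292 and 0.400 CPM at 60 days. Each group overlapped each of the others. Means were 0.159 CPM ± 0.0527 (SD, n = 4), 0.140 ± 0.0749, 0.179 ± 0.0889 and 0.292 ± 0.111 in the order of time, and their differences were not tested.

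Fstl3, the second follistatin family member, did not rise with Fst. It stood at 0.731, 0.587, 1.03 and 0.671 CPM at 0 days, at 1.02, 0.756, 1.12 and 0.861 CPM at 10 days, at 0.567, 0.712, 0.680 and 0.483 CPM at 30 days and at 0.415, 0.337, 0.409 and 0.222 CPM at 60 days. The 60-day libraries lay below every library of each other group, and the 30-day libraries lay below those of 10 days. Fstl3 was 2.18-fold lower at 60 days than at 0 days (log2 -1.12 ± 0.29 SE, edgeR adjusted p 0.00356). Against 0 days the changes of 0.32 ± 0.24 at 10 days (edgeR adjusted p 0.263) and -0.28 ± 0.25 at 30 days (adjusted p 0.346) were not called, but with library totals alone the first was 0.98 with an adjusted p of 0.00139 and the second turned to 0.20. From 10 to 60 days Fstl3 fell by 1.44 ± 0.28 SE on the log2 scale (edgeR adjusted p 0.000276). The calls of the steps from 10 to 30 days (-0.60 ± 0.24, edgeR adjusted p 0.0471) and from 30 to 60 days (-0.84 ± 0.29, adjusted p 0.0469) were each lost in 12 of the 16 fits that left out 1 library and with RLE factors, upper-quartile factors, DESeq2, no filter, the 2 groups alone or the title letter, and the second also with limma-voom. These counts were 5 to 35 fragments per library, and with counts thinned to the smallest library total the first of these steps was -0.29 with an adjusted p of 0.487. The ratio of Fstl3 to Inhba fragments averaged 2.11, 2.80, 1.79 and 0.27 on the log2 scale in the order of time, and each Inhba count behind it was 12 or lower.

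Acvr2b, a type II receptor gene for myostatin and activins, fell at 10 days and then partly recovered. Unoperated libraries held 4.16, 2.02, 4.06 and 5.75 CPM. The values were 1.16, 0.624, 0.461 and 0.430 CPM at 10 days, 0.815, 0.950, 1.16 and 0.965 CPM at 30 days and 1.84, 2.08, 2.28 and 2.36 CPM at 60 days. The 10-day and 30-day groups lay wholly below the unoperated group, whereas the 60-day group overlapped it at unoperated replicate 2. Acvr2b was 5.86-fold lower at 10 days (log2 -2.55 ± 0.32 SE, edgeR adjusted p 2.87e-06) and 4.08-fold lower at 30 days (-2.03 ± 0.31, adjusted p 2.75e-05). It was 1.86-fold lower at 60 days (-0.89 ± 0.30 SE, edgeR adjusted p 0.0161), a call lost without unoperated replicate 4 (adjusted p 0.0785) and with library totals alone (-0.48, adjusted p 0.155). The level was 1.66 ± 0.33 SE higher on the log2 scale at 60 than at 10 days (edgeR adjusted p 0.000356) and 1.14 ± 0.32 higher than at 30 days (adjusted p 0.0173), with no overlap in either comparison. The second of these calls was lost without replicate 1 at 30 days (1.06, edgeR adjusted p 0.0528). The step from 10 to 30 days was not called (0.52 ± 0.34, edgeR adjusted p 0.217), and without replicate 1 at 10 days it was 0.93 with an adjusted p of 0.0296.

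Markers of muscle fibres fell in the same libraries. The summed level of 6 fibre genes ran from 183459 to 199377 CPM at 0 days, from 44694 to 47280 CPM at 10 days, from 71183 to 115212 CPM at 30 days and from 102809 to 114014 CPM at 60 days. Of these 6 genes, 6, 5 and 4 were called lower at 10, 30 and 60 days, where 29.4%, 30.9% and 29.1% of all tested genes were. None of the 6 was at 0 fragments. Like Acvr2b, the sum was lowest at 10 days, while Mstn was lowest at 60 days. In whole muscle, fewer cells of a type and less RNA per cell cannot be told apart, and the part of fibre content in the Mstn and Acvr2b changes was not tested.

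The TGF-beta ligand genes rose to unequal extents and peaked at different times. Their upstream sequences are shown because the genes rose with different time courses. Each line gives the 250 bases before the RefSeq start site, 5′ to 3′ on the gene's own strand in build GRCr8, with every match to CANNTG (the E-box core) in capitals. They are Tgfb1 at chr1:90324062-90324311 (plus strand), Tgfb2 at chr13:100792686-100792935 (minus strand) and Tgfb3 at chr6:111456947-111457196 (minus strand).
Tgfb1: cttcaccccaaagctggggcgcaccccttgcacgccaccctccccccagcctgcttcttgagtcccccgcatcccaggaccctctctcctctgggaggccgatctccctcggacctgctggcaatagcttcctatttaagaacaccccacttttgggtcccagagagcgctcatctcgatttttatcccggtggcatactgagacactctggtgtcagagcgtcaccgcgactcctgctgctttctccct
Tgfb2: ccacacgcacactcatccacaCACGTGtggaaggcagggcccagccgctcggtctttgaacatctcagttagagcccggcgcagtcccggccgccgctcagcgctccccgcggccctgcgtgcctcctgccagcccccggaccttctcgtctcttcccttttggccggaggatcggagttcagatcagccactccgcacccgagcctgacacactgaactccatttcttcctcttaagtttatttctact
Tgfb3: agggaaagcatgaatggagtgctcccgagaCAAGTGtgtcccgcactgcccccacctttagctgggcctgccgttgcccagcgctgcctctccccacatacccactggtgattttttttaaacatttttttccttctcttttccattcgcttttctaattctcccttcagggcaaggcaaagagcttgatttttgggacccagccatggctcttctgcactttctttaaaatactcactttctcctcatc
Matches were sought on both strands over the 250 bases before to 50 bases after the start. CANNTG occurred once for Tgfb2, once for Tgfb3 and not for Tgfb1, against a match in 72.1% of 33469 rat promoters of that length. The Smad motif CAGAC occurred in none of these promoters, against 50.1% of all promoters, and neither did its palindrome GTCTAGAC, against 0.197%. Of the 10 named genes, 7 had a promoter in the table, and Mstn, Fst and Gdf5 had none. In the other promoters, Fstl3 held 3 matches to CANNTG and 2 to CAGAC, Inhba held 1 of each, Tgfbr2 held 1 to CANNTG and Acvr2b none of either. GTCTAGAC occurred in none of the 7.

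Among the TGF-beta ligand genes, Tgfb2 showed the largest rise at 10 days, while at 60 days its rise was close to that of Tgfb1. It stood at 27.2, 27.0, 29.2 and 23.1 CPM at 0 days, at 125, 166, 127 and 123 CPM at 10 days, at 114, 75.5, 60.5 and 118 CPM at 30 days and at 95.4, 36.4, 37.5 and 49.4 CPM at 60 days. All operated libraries lay above all unoperated ones, with replicate 2 the highest at 10 days and replicate 1 the highest at 60 days. Tgfb2 was 5.08-fold higher at 10 days (log2 2.35 ± 0.28 SE, edgeR adjusted p 3.21e-06), 3.46-fold higher at 30 days (1.79 ± 0.28, adjusted p 4.81e-05) and 2.06-fold higher at 60 days (1.04 ± 0.28, adjusted p 0.00463). Without replicate 1 at 60 days, the last of these was 0.63 (edgeR adjusted p 0.0194). It fell by 1.31 ± 0.27 SE on the log2 scale from 10 to 60 days (edgeR adjusted p 0.000679), with no overlap. The steps from 10 to 30 days (-0.55, edgeR adjusted p 0.0998) and from 30 to 60 days (-0.75, adjusted p 0.0576) were not called. Without replicate 1 at 60 days these had edgeR adjusted p-values of 0.0245 and 0.00136, the latter step then being -1.16. Without replicate 3 at 30 days the step from 30 to 60 days was -0.91 with an adjusted p of 0.0261, and with the libraries' column suffix as a replicate block it was -0.79 with an adjusted p of 0.0452. With library totals alone both steps were called (-0.70 and -0.86, edgeR adjusted p 0.0472 and 0.0344). The step from 30 to 60 days was also called with DESeq2 (adjusted p 0.0297), limma-voom (0.0418), upper-quartile factors (0.0476) and the title letter as a covariate (0.0448).

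Tgfb1 peaked at 30 days. The libraries held 6.86, 8.18, 7.0 and 5.94 CPM at 0 days, 12.3, 15.5, 15.6 and 16.2 CPM at 10 days, 24.3, 25.7, 16.4 and 25.7 CPM at 30 days and 15, 13.1, 14 and 16 CPM at 60 days. No operated library overlapped the unoperated ones, each 30-day library lay above those of 10 and 60 days, and replicate 3 was the lowest at 30 days. Tgfb1 was 2.12-fold higher at 10 days (log2 1.08 ± 0.14 SE, edgeR adjusted p 5.75e-06), 3.29-fold higher at 30 days (1.72 ± 0.14, adjusted p 4.56e-08) and 2.07-fold higher at 60 days (1.05 ± 0.15, adjusted p 1.5e-05). It rose by 0.63 ± 0.14 SE from 10 to 30 days (edgeR adjusted p 0.00118) and fell by 0.66 ± 0.14 from 30 to 60 days (adjusted p 0.00295). The levels at 10 and 60 days, 14.9 CPM ± 1.77 and 14.5 ± 1.24 (SD, n = 4), did not differ beyond their spread (log2 -0.03 ± 0.14 SE, edgeR adjusted p 0.85).

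Tgfb3 changed less. It stood at 25.3, 32.5, 27.4 and 22 CPM at 0 days, at 37.1, 29.3, 40.0 and 40.6 CPM at 10 days, at 42.9, 49.7, 48.4 and 46.5 CPM at 30 days and at 27.4, 25.4, 36.2 and 42.8 CPM at 60 days. Only the 30-day group was clear of the unoperated one. The change against 0 days was 0.45 ± 0.15 SE at 10 days (edgeR adjusted p 0.0173), 0.80 ± 0.15 at 30 days (adjusted p 0.000272, 1.75-fold) and 0.30 ± 0.16 at 60 days (adjusted p 0.11). The 10-day call was lost without unoperated replicate 4 or without replicate 4 at 10 days (edgeR adjusted p 0.0554 and 0.0507). The call was also lost with thinned counts (edgeR adjusted p 0.0623). The 60-day change was called without unoperated replicate 2 (0.42, edgeR adjusted p 0.0353), without replicate 2 at 60 days (0.40, adjusted p 0.035) with upper-quartile factors (0.44, adjusted p 0.0265) and with library totals alone (0.71, adjusted p 0.00126). Tgfb3 fell by 0.51 ± 0.15 SE from 30 to 60 days (edgeR adjusted p 0.0258). That call was lost without replicate 2 or 4 at 30 days (edgeR adjusted p 0.0558 and 0.0519) and without replicate 1 or 2 at 60 days (adjusted p 0.0593 and 0.0834), and with the 2 groups alone or the title letter (adjusted p 0.0535 and 0.0505). The step from 10 to 30 days was 0.35 ± 0.15 SE (edgeR adjusted p 0.0666), and it was called without replicate 2 or 4 at 60 days (adjusted p 0.0478 and 0.0344). It was also called with upper-quartile factors (edgeR adjusted p 0.0386), DESeq2 (0.0482), limma-voom (0.0449) and the 2 groups alone (0.0177).

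Tgfbr2, the type II receptor gene of the TGF-beta isoforms, stayed within a narrow range. It stood at 25.5, 22.7, 22.9 and 19.3 CPM at 0 days, at 31.3, 27.5, 29.4 and 25.0 CPM at 10 days, at 27.7, 29.5, 19.8 and 23.1 CPM at 30 days and at 26.8, 19.1, 24.0 and 28.2 CPM at 60 days. Every operated group overlapped the unoperated one. The change was 0.32 ± 0.14 SE at 10 days (edgeR adjusted p 0.0461), a call that was lost in 8 of the 16 fits that left out 1 library and with RLE factors or DESeq2 (adjusted p 0.0721 in each). At 30 days it was 0.15 ± 0.14 SE (edgeR adjusted p 0.344) and at 60 days 0.12 ± 0.14 (adjusted p 0.464). On library totals, the changes were 0.98, 0.65 and 0.53, and the last 2 then had edgeR adjusted p-values of 0.00092 and 0.00534. The ratio of ligand to Tgfbr2 fragments within a library does not depend on that choice. Its log2 mean for Tgfb1 was -1.69 ± 0.17 (SD, n = 4), -0.93 ± 0.31, -0.13 ± 0.19 and -0.74 ± 0.14 in the order of time. For Tgfb2 it was 0.24 ± 0.11, 2.25 ± 0.26, 1.84 ± 0.45 and 1.05 ± 0.53 in the same order, and for Tgfb3 0.24 ± 0.22, 0.37 ± 0.26, 0.92 ± 0.29 and 0.41 ± 0.27.

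Some marker lists of cells other than fibres were higher in operated muscle and others were not. In the order of time, summed levels of 6 macrophage genes ran from 18.7 to 38.8 CPM, 62.0 to 85.5 CPM, 96.1 to 117 CPM and 78.0 to 142 CPM. Summed fibroblast genes ran from 289 to 696, 623 to 2198, 927 to 1820 and 827 to 1833 CPM, with Cd34 at 0 in all groups, and tendon genes from 70.7 to 93.8, 161 to 228, 204 to 228 and 124 to 298 CPM. Lymphocyte genes ran from 2.70 to 4.19, 7.89 to 13.4, 9.68 to 15.2 and 6.78 to 17.5 CPM, and satellite cell genes from 3.88 to 5.71, 7.66 to 14.7, 8.84 to 13 and 6.49 to 10.3 CPM. The macrophage, lymphocyte, tendon and satellite cell sums lay above the unoperated range in each operated library, and the fibroblast sums did at 30 and 60 days. Of the 3 satellite cell genes, 1, 1 and 2 were called higher in the order of time, and none lower. Their median log2 change was -0.17, 0.23 and 0.85. Of the 3 tendon genes in the table, 3, 3 and 2 were called higher, and 1 was called lower at 60 days. Of all tested genes, 33.3%, 33.7% and 29.9% were called higher and 29.4%, 30.9% and 29.1% lower. Schwann cell genes ran from 37.6 to 62.0, 18.3 to 35.2, 35.9 to 61.2 and 67.0 to 150 CPM, and adipocyte genes from 7.42 to 41.5, 8.73 to 24.6, 11.5 to 27.8 and 49.6 to 119 CPM. Endothelial genes ran from 197 to 240, 105 to 166, 154 to 178 and 171 to 264 CPM, and smooth muscle genes from 249 to 320, 111 to 167, 163 to 187 and 179 to 340 CPM. The Schwann, endothelial and smooth muscle sums were thus lowest at 10 days, when Tgfb2 was highest, and the adipocyte sum lay within the unoperated range at 10 and 30 days. The part of these cells in the rise of the TGF-beta genes was not tested.

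Of the 9 genes in the table, 8 passed the filter on low counts. At 10 days 7 of the 8 were called, 5 higher and 2 lower, where 62.7% of all tested genes were called, 33.3% higher and 29.4% lower. The groups did not overlap for 5 of the 8, against 59.0% of all genes. At 30 days 6 of the 8 were called, 4 higher and 2 lower, against 64.6% of all genes (33.7% and 30.9%), and 6 did not overlap, against 60.2%. At 60 days 6 of the 8 were called, 3 in each direction, against 59.0% (29.9% and 29.1%), and with library totals alone the split was 5 higher to 2 lower. At this time 5 of the 8 did not overlap, against 50.0%. The F test of the 3 differences from 0 days together called 7 of the 8, all but Tgfbr2 (edgeR adjusted p 0.169), against 84.7% of all genes. With most genes of the table called at each time, these counts are not read as a property of the set. The 3 comparisons share the unoperated libraries.

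**Figure D3:**
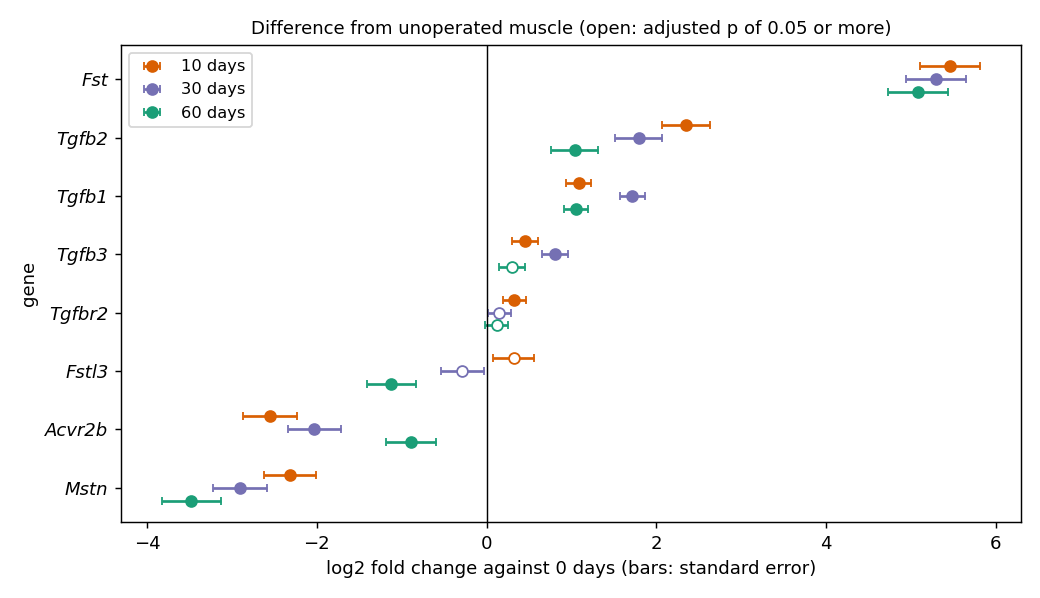
Log2 fold change against 0 days (horizontal axis) of the 8 tested genes (vertical axis), at 10, 30 and 60 days. Bars are ± 1 standard error, and open points have an adjusted p of 0.05 or more. Fst lies above 5 at each time, Mstn moves from -2.31 to -3.48, and Acvr2b moves back from -2.55 to -0.89.

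Between operated groups fewer calls were made. From 10 to 30 days 2 of the 8 genes were called, Tgfb1 higher and Fstl3 lower, where 47.3% of all genes were called (23.0% higher, 24.3% lower), and 4 did not overlap, against 43.8%. Scaled by library totals only, 1 was called higher and 2 lower (47.6% of all genes called), and with upper-quartile factors 2 higher and none lower (48.6%). From 30 to 60 days 4 were called, Acvr2b higher and Tgfb1, Tgfb3 and Fstl3 lower, against 22.6% (10.3% and 12.4%), and the same 4 did not overlap, against 20.1%. From 10 to 60 days 4 were called, Acvr2b higher and Mstn, Tgfb2 and Fstl3 lower, against 61.1% (29.1% and 31.9%), and these 4 did not overlap, against 51.2%. Under library totals 1 was called higher and 6 lower, where 63.2% of all genes were called.

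The wider pathway was followed with a list of 70 further ligands, regulators, receptors, mediators and target genes, of which 67 were in the table and 63 were tested. At 10 days 20 were called higher and 15 lower, at 30 days 26 and 14, and at 60 days 26 and 12. Called in either direction were 55.6%, 63.5% and 60.3% of the list, against 62.7%, 64.6% and 59.0% of all tested genes, so the shares are near the background. Their median log2 change was 0.04 at 10 days, 0.10 at 30 days and 0.20 at 60 days, against 0.06, 0.05 and 0.04 over all tested genes. With library totals alone the splits were 41 higher to 4 lower, 37 to 5 and 34 to 8, so the balance of directions depends on the scaling. From 10 to 30 days 17 were called higher and 12 lower (46% in either direction, against 47.3% of all tested genes). From 30 to 60 days the calls were 5 and 5 (15.9%, against 22.6%), and from 10 to 60 days 23 and 17 (63.5%, against 61.1%). When libraries were scaled by totals only, these splits were 11 to 16, 1 to 7 and 12 to 26. The count from 30 to 60 days was 19 without replicate 1 at 60 days, where 28.7% of all tested genes were called. It was 5 without replicate 4 at 30 days (16.1%), and 6 without replicate 2 (16.2%) or without replicate 3 (17.3%) at 60 days.

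Of 10 other ligand genes, 1 was called higher at 10 days and 5 at each later time, with none lower (where 33.3%, 33.7% and 29.9% of all tested genes were called higher). On library totals 7 were higher at each time and none lower, and with RLE factors or DESeq2 1 was lower at 10 days. Gdf11, which encodes the closest relative of myostatin, was higher at 10 days (log2 1.13 ± 0.25 SE, edgeR adjusted p 0.000849). It was 0.66 higher at 30 days (edgeR adjusted p 0.0275), a call lost without unoperated replicate 2 or 3 or without replicate 2 or 4 at 30 days (adjusted p 0.0542, 0.079, 0.0837 and 0.0786), and at 60 days the change was 0.16 (adjusted p 0.604). Bmp4, a bone morphogenetic protein gene, was higher at 30 days (1.07 ± 0.17 SE, edgeR adjusted p 4.7e-05) and Bmp5, another, at 60 days (0.91 ± 0.15, adjusted p 7.18e-05). Both were higher at the other late time too. With 1 library left out, Bmp4 at 60 days ran from 0.60 to 0.82 (edgeR adjusted p at most 0.0076). Bmp5 at 30 days ran from 0.60 to 0.71 in such fits (edgeR adjusted p at most 0.00408). Gdf11 thus moved opposite to Mstn at 10 days.

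Of 17 extracellular regulators, 5 were called higher and 3 lower at 10 days, and 9 higher and 3 lower at both later times, where 33.3%, 33.7% and 29.9% of all tested genes were called higher and 29.4%, 30.9% and 29.1% lower. On library totals the splits were 12 to 1, 12 to 1 and 11 to 2. Chrd, which encodes the BMP antagonist chordin, had means of 3.59 CPM ± 0.561 (SD, n = 4), 70.4 ± 9.73, 60.2 ± 30.5 and 11.2 ± 1.12 in the order of time. Its change was 4.28 ± 0.30 SE at 10 days (edgeR adjusted p 1e-08) and 1.63 ± 0.30 at 60 days (adjusted p 0.000282). Ltbp1, whose product tethers latent TGF-beta to the matrix, went from 29.5 CPM ± 2.05 (SD, n = 4) to 217 ± 43.4 at 10 days, 127 ± 23.2 at 30 days and 94.0 ± 22.9 at 60 days, a rise of 2.88 ± 0.18 SE at 10 days (edgeR adjusted p 3.2e-09). Furin, which encodes a protease that cleaves the precursors of these ligands, fell by 0.81 ± 0.08 SE at 30 days (edgeR adjusted p 1.78e-07) and by 0.75 ± 0.08 at 60 days (adjusted p 7.94e-07), while at 10 days its change was -0.07 on the TMM scale and 0.59 with library totals alone. Lrrc32, which encodes a carrier of latent TGF-beta, fell by 0.75 ± 0.20 at 10 days (edgeR adjusted p 0.00328), a call lost with library totals alone. Grem1, the gene of a BMP antagonist and chosen after its values were seen, had no fragment in the unoperated libraries. Against 3 fragments over that group, its log2 change was at least 3.58 at 10 days, 4.04 at 30 days and 2.74 at 60 days, and the medians with Grem1 at that bound were the same.

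Of 12 other receptor and co-receptor genes, 3 were called higher and 6 lower at 10 days, 2 and 4 at 30 days, and 2 and 3 at 60 days, against 33.3% higher and 29.4% lower, 33.7% and 30.9%, and 29.9% and 29.1% of all tested genes. On library totals, these were 6 and 3, 4 and 2, and 5 and 3, so a direction of the group depends on the scaling. Acvr1b, which encodes a type I receptor for activins and myostatin, went from 32.6 CPM ± 3.86 (SD, n = 4) to 15.9 ± 1.10 at 10 days, 9.59 ± 1.22 at 30 days and 10.8 ± 3.11 at 60 days, a fall of 1.76 ± 0.15 SE at 30 days (edgeR adjusted p 6.75e-08). It was lower at 10 days as well, like Acvr2b (-1.03, edgeR adjusted p 1.36e-05). Tgfbr3, the gene of the co-receptor betaglycan, was higher by 0.80, 0.89 and 0.89 in the order of time (edgeR adjusted p 1.59e-05, 6.52e-06 and 1.01e-05). Hjv, the gene of the BMP co-receptor hemojuvelin, listed as Hfe2, fell from 1983 CPM to 895, 857 and 859 CPM, with edgeR adjusted p-values of 1.59e-06, 1.15e-06 and 1.82e-06. The other type II and type I partners, chosen after their values were seen, were Acvr2a (0.18, -0.15 and -0.14, none called) and Tgfbr1 (0.60 ± 0.10 SE at 10 days, edgeR adjusted p 4.76e-05, and 0.07 and 0.08 later, not called). With library totals alone Acvr2a was 0.84 higher at 10 days (edgeR adjusted p 0.000134) and 0.35 and 0.27 at the later times, and Tgfbr1 was 0.57 and 0.49 higher at 30 and 60 days (adjusted p 0.000238 and 0.00112).

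Of 12 intracellular mediators, 4 were called higher and 3 lower at 10 days, and 2 higher and 6 lower at both later times. Called in either direction were 58.3%, 66.7% and 66.7%, near the 62.7%, 64.6% and 59.0% of all tested genes. Under library totals, the splits were 8 and none, 5 and 2, and 2 and 3. Tgif1, which encodes a repressor that binds Smads, was higher by 3.36 ± 0.25 SE at 10 days (edgeR adjusted p 1.75e-08), by 2.07 ± 0.25 at 30 days (adjusted p 3.46e-06) and by 0.87 ± 0.26 at 60 days (adjusted p 0.00848). Zfyve9, which encodes an anchor that presents Smads to the receptor, was lower by 1.07 ± 0.09 SE at 30 days and by 0.90 ± 0.09 at 60 days (edgeR adjusted p 7.77e-08 and 8.56e-07). At 10 days it was lower by 0.66 ± 0.09 SE (edgeR adjusted p 1.12e-05), a call lost with library totals alone (-0.0017, adjusted p 0.987). Smad3, chosen after its values were seen, fell by 0.89 ± 0.18 SE at 60 days (edgeR adjusted p 0.000527), and its change at 30 days (-0.55, adjusted p 0.0126) was lost with library totals alone.

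Of 12 known target genes, 7 were called higher and 3 lower at 10 days, 8 and 1 at 30 days, and 8 and none at 60 days. Called in either direction were 83.3%, 75.0% and 66.7%, against 62.7%, 64.6% and 59.0% of all tested genes. When libraries were scaled by totals only, 8, 9 and 9 were called higher and none lower. On that scale 80.2%, 75.1% and 69.9% of all tested genes were called in either direction. The median log2 change of all tested genes was then 0.72, 0.54 and 0.45, against 1.36, 1.39 and 1.28 for the target genes. On the TMM scale the target gene medians were 0.70, 0.90 and 0.88, against 0.06, 0.05 and 0.04 over all tested genes. The cause of this split was not tested. Cdkn1a, which encodes the cell cycle inhibitor p21, went from 46.9 CPM ± 12 (SD, n = 4) to 1695 ± 222 at 10 days, 1698 ± 202 at 30 days and 1238 ± 643 at 60 days, a change of 5.18 ± 0.31 SE at 10 days (edgeR adjusted p 2.36e-09). Pmepa1, which encodes a feedback inhibitor of TGF-beta signalling and was chosen after its values were seen, was higher by 2.41 ± 0.21 SE at 10 days (edgeR adjusted p 5.32e-08), by 1.32 ± 0.20 at 30 days (adjusted p 3.58e-05) and by 0.96 ± 0.21 at 60 days (adjusted p 0.000902). Id1, a BMP target gene, fell by 0.99 ± 0.23 SE at 10 days (edgeR adjusted p 0.00127) and by 0.81 ± 0.22 at 30 days (adjusted p 0.00515), and both calls were lost with library totals alone (-0.33 in each). Several of these genes also respond to other signals, Cdkn1a among them.

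**Figure D4:**
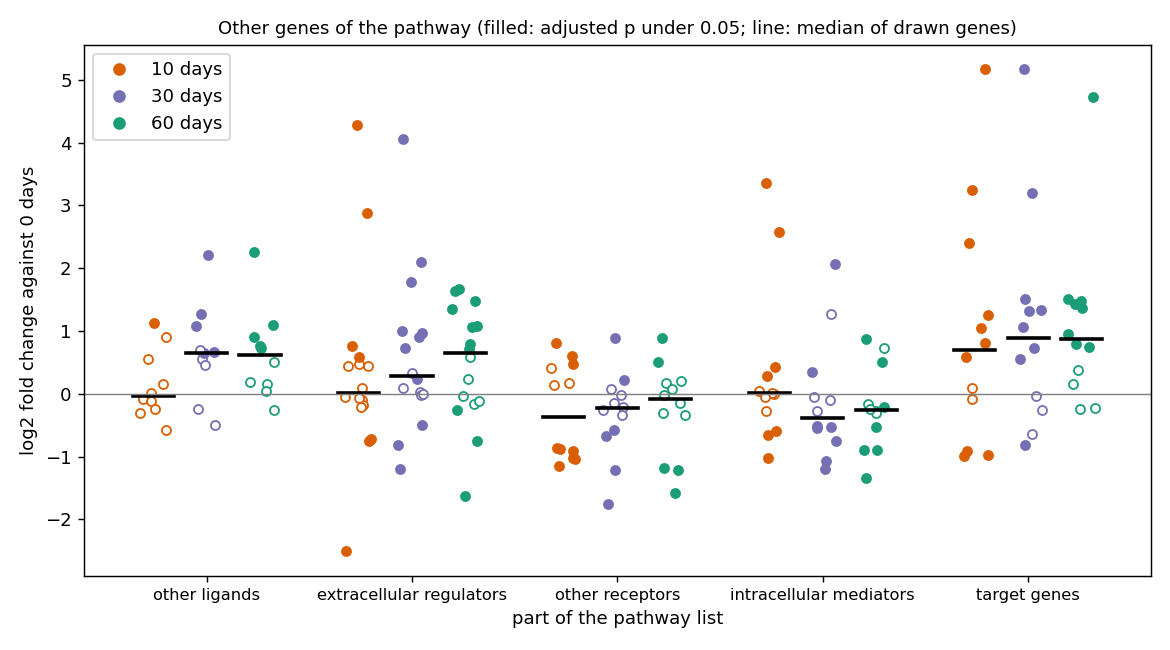
Log2 fold change against 0 days (vertical axis) of the other tested pathway genes by the part of the list they belong to (horizontal axis), coloured by time. Filled points have an adjusted p under 0.05 and the line is the median of the drawn genes, from which Grem1, with no fragment at 0 days, was left out. Cdkn1a at 5.18 and Chrd at 4.28 are the highest points at 10 days, and at that time each part has points on both sides of 0.

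Genes with the most similar course over the 16 libraries were ranked by Pearson's r of log2 CPM among 8213 genes with a mean of at least 5 CPM, as a description with no test, since all libraries share the same 4 groups. Fst was most like Cdkn1a (r = 0.986) and Sln, the sarcolipin gene (r = 0.981). Calm3, a calmodulin gene, was among the genes most like Mstn (r = 0.965). Acvr2b was most like Abcb4 (r = 0.946) and Nrp1 (r = 0.945), and Tgfb2 like Ninj1 (r = 0.974) and Il6st (r = 0.973). Tgfb1 was most like RT1-CE14 (r = 0.969) and Invs (r = 0.960), and Tgfb3 like Hdac1 (r = 0.906) and Cpxm2 (r = 0.876). The nearest genes to Tgfbr2, Zeb2 (r = 0.793) and Plxnb2, and to Inhba, Sh3tc1 (r = 0.849) and Tal1 (r = 0.83), were less alike, and for Fstl3 they were Abcc8 and Nle1 (r = 0.890).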

How the data were processed

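RNA from supraspinatus muscle was isolated with a miRNeasy kit and, per the labels' protocols, libraries were prepared with a TruSeq mRNA kit. The authors deposited 1 table of raw fragments per gene and library, which are expected counts: 233 of the 17147 genes have a fractional value. The submitters' processing notes name bcl2fastq 1.8.4, FastQC, TopHat2 2.0.9, Bowtie2 2.1.0.0, Cufflinks, Cuffdiff 2.1.1 and build rn5. Strandedness, annotation and filters are not given in the sources used here, so reads of overlapping or antisense genes cannot be told apart.

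Counts were rounded, filtered (filterByExpr by group) and TMM-scaled, and all 16 libraries entered 1 edgeR 4.0.16 quasi-likelihood fit with robust estimation and no covariate (R 4.3.3). The common dispersion corresponded to a biological coefficient of variation of 0.15 over all genes. A simulation of 10 against 0 days with 11531 tested genes recovered 172 of 200 set to a 2-fold change and called 6 of the others. The changed genes were few, balanced in direction and not low in counts. The simulation therefore does not cover the wide changes, the scaling shift or the low counts of these data.

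The members, the pathway list, the marker lists and the tests were chosen with earlier results of these data known. Beside the members, the pathway genes named are those with the largest change in each direction in each part of the list at each time, with an adjusted p under 0.05 and a mean of at least 5 CPM. The text marks genes chosen otherwise. Promoters came from RefSeq (GRCr8) and the rn5 files were not joined to them by position. Alternatives were RLE, upper-quartile or no factors, DESeq2 1.42.0, limma-voom (limma 3.58.1), no filter, a mean of at least 1 CPM, a fit without robust estimation, the 2 groups alone, an adjusted p under 0.01, a replicate block, the title letter as covariate, thinned counts and each library left out. Floors of 3 counts cover counting error only. 1 gene that the rule on similar courses names is not reported here.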

Additional observations from a re-analysis of the deposited data

Results flagged for a closer look

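Of 36 groups of 4 libraries examined, 4 held a library far from the other 3 by Dixon's criterion, and chance flags about 1 in 20 groups. Mstn in replicate 3 at 10 days was at 4.98 CPM, where the others were at 1.84 to 2.15 CPM. Tgfb1 in replicate 1 at 10 days was at 12.3 CPM (others 15.5 to 16.2 CPM), and in replicate 3 at 30 days at 16.4 CPM (others 24.3 to 25.7 CPM). Tgfb2 in replicate 2 at 10 days was at 166 CPM, where the others were at 123 to 127 CPM.

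The change from 0 days differed between times, by the edgeR contrast of the operated groups, for 6 genes. For Mstn the difference was -1.17 (60 minus 10 days, log2). For Tgfb1 it was 0.63 (30 minus 10 days) and -0.66 (60 minus 30 days), for Tgfb2 -1.31 (60 minus 10 days) and for Tgfb3 -0.51 (60 minus 30 days). For Fstl3 it was -0.60 (30 minus 10 days), -0.84 (60 minus 30 days) and -1.44 (60 minus 10 days), and for Acvr2b 1.14 (60 minus 30 days) and 1.66 (60 minus 10 days). The Fstl3 calls at -0.60 and -0.84 were each lost in 12 of the 16 fits that left out 1 library. The Tgfb3 call was lost in 4 of those fits, and the Acvr2b call at 1.14 in 1.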

How the results depend on the processing

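The count of called genes from 10 to 30 days was 2, where 47.3% of all tested genes were called. It was 1 with RLE factors (47.1% of all tested genes), no filter (36.8%) or a mean of at least 1 CPM (51.4%). It was also 1 with the title letter (42.3%), thinned counts (44.4%) or an adjusted p under 0.01. With 1 library left out it ran from 1 to 3. From 30 to 60 days the count of 4 became 2 with the 2 groups alone, where 13.5% of all tested genes were called, against 22.6% in the main fit. It was 1 at an adjusted p under 0.01 and ran from 2 to 4 with 1 library left out. From 10 to 60 days the count of 4 became 7 with library totals alone (63.2% of all tested genes, against 61.1%). The pathway count of 10 from 30 to 60 days became 5 at an adjusted p under 0.01 and ran from 5 to 19 with 1 library left out. The cause of these shifts was not tested.

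Directions turned in the following, and the turned value was called only for Bmp5 and Furin under library totals (edgeR adjusted p 0.0062 and 1.42e-06). With library totals alone they were Fstl3 at 30 days (0.20), Bmp5 (0.54), Furin (0.59) and Smad3 (0.39) at 10 days, Lrrc32 (0.38) and Id1 (0.19) at 60 days, and Acvr2a at 30 (0.35) and 60 days (0.27). With upper-quartile factors they were Tgfb1 from 10 to 60 days (0.055), Lrrc32 (0.11) and Acvr2a (0.00047) at 60 days. Thinning turned Fstl3 at 30 days (0.054) and Bmp5 at 10 days (0.065), a mean of at least 1 CPM turned Lrrc32 at 60 days (0.012), and the title letter turned Fst from 10 to 30 days (0.013). Leaving out 1 library gave ranges across 0 for Fst (-0.35 to 0.10) and Tgfbr2 (-0.13 to 0.072) from 30 to 60 days, Tgfb1 from 10 to 60 days (-0.12 to 0.012) and Lrrc32 at 60 days (-0.14 to 0.13). None of these was called on the TMM scale.

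The labels do not state that the column suffix numbers pair the libraries. Over 24 same-suffix pairs the deviations correlated with a mean r of 0.0013 (-0.24 to 0.22), and 4 pairs exceeded 0.1. These correlations cannot show whether libraries were paired. With the suffix as a replicate block, 7, 6 and 6 of the 8 genes were called at 10, 30 and 60 days against 0 days, and 5 rather than 4 from 30 to 60 days, Tgfb2 being the added one (-0.79). Low counts limit Inhba, Fstl3, late Mstn and unoperated Fst (8 to 35 fragments per library). They also limit Acvr2b at 10 days (14 to 40 fragments) and at 30 days (23 to 40).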
